A study of Mus musculus with 2 samples.

Results

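Cell cycle genes and the cells that express them were examined in single-cell RNA sequencing of the mouse retinal pigment epithelium (RPE, the pigmented layer behind the photoreceptors) and choroid (the vascular layer beneath it). The 36 genes were taken from a list: 21 that act mainly in mitosis, 12 that act mainly in DNA replication and 3 that are also expressed widely outside dividing cells, out of 32285 genes in the count matrices. A cell was called cycling when it held a UMI (a unique molecular identifier, which marks 1 captured RNA molecule) of at least 3 different mitotic-list genes. By this rule 17 of 1525 cells of the Tsc1 flox library and 20 of 1824 cells of the Tsc1 RPE KO library were called.

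Both libraries came from animals of 10 weeks, and each pooled tissue of 1 male and 1 female. The Tsc1 flox control carried the floxed Tsc1tm1Djk/J allele without Cre, and the Tsc1 RPE KO carried the same allele with Best-Cre, a Cre driven by the promoter of bestrophin, an RPE gene, so that only RPE cells are meant to lose Tsc1. Live cells were sorted from digested eyecups after the neural retina had been taken off. There was 1 library per genotype, so no test between genotypes was possible, and every interval given is an exact 95% interval that covers counting error only. The intervals do not cover the spread between animals.

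Cells held a median of 4540 UMIs in Tsc1 flox, beside 4637 in Tsc1 RPE KO, from 1502 to 27981 and from 1506 to 21413. They fell into 20 clusters, drawn without cell cycle genes and named from marker genes in 11 classes. Lymphocytes and monocytes made up most cells, and RPE-like cells numbered 12 and 40. Tsc1 itself had 0 UMIs in RPE-like cells of both libraries, a count that allows up to 3, and 180 and 191 UMIs over all cells, so it does not check the labels. Only 2 cell barcodes occurred in both libraries, neither belonging to a cell with at least 11 mitotic-list genes.

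A dividing cell first copies its DNA and then separates the copies. During replication the Mcm2 to Mcm7 helicase unwinds DNA, the clamp Pcna holds the polymerases on it, and Rrm1, Rrm2, Tyms and Tk1 supply nucleotides. In mitosis Cdk1 with cyclins A and B drives entry, kinesins such as Kif11 and Kif23 build and divide the spindle, the checkpoint kinases Bub1 and Bub1b watch the attachment of chromosomes, and Cdc20 and Ube2c mark proteins for destruction so that the cell can exit. In adult mice RPE cells and rods do not normally divide, while lymphocytes divide when activated.

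Replication genes are known targets of E2F factors, and many mitotic genes are read through a CCAAT box and a cell cycle homology region (CHR). Of the 36 genes, 31 had an entry in the RefSeq promoter table (build GRCm38.p6), and the 250 bases before their starts were searched on both strands. For the CHR the letters searched were TTTGAA or else TTCGAA, and the box was searched as CCAAT. The E2F core was searched as TTGGCGC, as the variant TTCCCGC, as the variant TTCGCGC or as the variant TTGCCGC. E2F matches on opposite strands can overlap, and each was counted. A CCAAT was present in 16 of 18 mitotic-list promoters (88.9%) and 9 of 11 replication-list promoters (81.8%), against 33.8% of 32851 promoters in the table. A CHR was present in 8 of 18 mitotic-list promoters (44.4%) and 2 of 11 replication-list promoters (18.2%), against 17.1% of all. An E2F core was present in 3 of 18 mitotic-list promoters (16.7%) and 5 of 11 replication-list promoters (45.5%), against 7.89% of all. All 8 mitotic-list promoters with a CHR also held a CCAAT, and 6.02% of all promoters held both. These are matches of letters, not binding sites.

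The promoters of Top2a and Cdk1 are shown because their RNAs lay mostly in the few dividing cells, those of Mcm6 and Mcm5 because they hold the most E2F matches and were also read in many other cells, and that of Ube2c because its RNA also stood in red cells. Each is given 5′ to 3′ on the strand of the gene and ends at the base before the start, with CHR, CCAAT and E2F matches in capitals.
Top2a, chr11:99024190-99024439, minus strand: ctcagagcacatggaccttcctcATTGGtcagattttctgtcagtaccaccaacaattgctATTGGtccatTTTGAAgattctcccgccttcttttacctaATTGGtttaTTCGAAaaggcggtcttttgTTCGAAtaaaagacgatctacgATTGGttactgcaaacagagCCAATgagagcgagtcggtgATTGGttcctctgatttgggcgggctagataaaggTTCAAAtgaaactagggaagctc
Cdk1, chr10:69352913-69353162, minus strand: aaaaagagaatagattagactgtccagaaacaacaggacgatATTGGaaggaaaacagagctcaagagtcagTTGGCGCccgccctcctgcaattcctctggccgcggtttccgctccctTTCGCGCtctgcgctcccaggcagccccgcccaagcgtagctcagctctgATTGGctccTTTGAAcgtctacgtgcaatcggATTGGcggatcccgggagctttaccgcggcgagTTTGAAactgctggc
Ube2c, chr2:164769679-164769928, plus strand: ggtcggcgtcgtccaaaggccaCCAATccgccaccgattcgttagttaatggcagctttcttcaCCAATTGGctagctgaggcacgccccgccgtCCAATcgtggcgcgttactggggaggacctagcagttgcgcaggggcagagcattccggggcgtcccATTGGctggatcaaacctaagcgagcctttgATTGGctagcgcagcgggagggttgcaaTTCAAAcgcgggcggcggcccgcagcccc
Mcm6, chr1:128359706-128359955, minus strand: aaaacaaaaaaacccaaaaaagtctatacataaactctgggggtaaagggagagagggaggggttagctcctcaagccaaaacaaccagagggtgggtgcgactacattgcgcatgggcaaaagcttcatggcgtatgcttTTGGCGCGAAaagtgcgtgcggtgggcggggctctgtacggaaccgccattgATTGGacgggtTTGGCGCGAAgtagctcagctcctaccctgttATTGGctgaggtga
Mcm5, chr8:75109259-75109508, plus strand: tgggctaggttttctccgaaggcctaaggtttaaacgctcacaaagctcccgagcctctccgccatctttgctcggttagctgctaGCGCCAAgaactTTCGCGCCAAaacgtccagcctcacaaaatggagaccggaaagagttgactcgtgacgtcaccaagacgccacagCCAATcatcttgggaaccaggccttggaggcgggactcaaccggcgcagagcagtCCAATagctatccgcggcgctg
Top2a held 4 CHR and 6 CCAAT matches, and Cdk1 held 2 CHR, 3 CCAAT and 2 E2F matches. Ube2c held 1 CHR and 6 CCAAT matches. Mcm6 held 4 E2F and 2 CCAAT matches and Mcm5 held 3 and 2, and neither held a CHR match in this window.

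The number of mitotic-list genes per cell fell into 2 ranges with nothing between them. In Tsc1 flox, 1085 cells held none, 423 held 1 or 2, 12 held 3 to 6, 0 held 7 to 10 and 5 held 11 or more. In Tsc1 RPE KO the numbers were 1282, 522, 12, 0 and 8. The cells with 3 to 6 genes were deep, with a median of 8836 UMIs, and 15 of the 24 held Cenpa, 11 held Kif23 and 9 held Mki67 or Top2a. When each cell was thinned to 1500 UMIs, 2 of these 24 cells kept at least 3 mitotic-list genes, and 13 of 13 cells with at least 11 did. The 2 were a Tsc1 flox NK cell-like cell with 11 replication-list genes and a Tsc1 RPE KO monocyte-like cell of 1759 UMIs in all. Among those that did not keep 3, a Tsc1 flox T cell-like cell of 9062 UMIs held 17 mitotic-list UMIs. They were 6 of Birc5, 4 of Cenpa, 4 of Ube2c and 3 of Ccnb2, so failing to keep 3 genes does not show that a cell was not cycling. Thinning was a single random draw of the same counts that set the 2 groups. Deep cells with few mitotic-list UMIs were likely to drop out, so it is no test of the limit. The description below follows the 13 cells, a limit chosen after the counts were seen. The 2 cells that kept 3 genes after thinning are not among them, nor is that T cell-like cell.

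**Figure D1:**
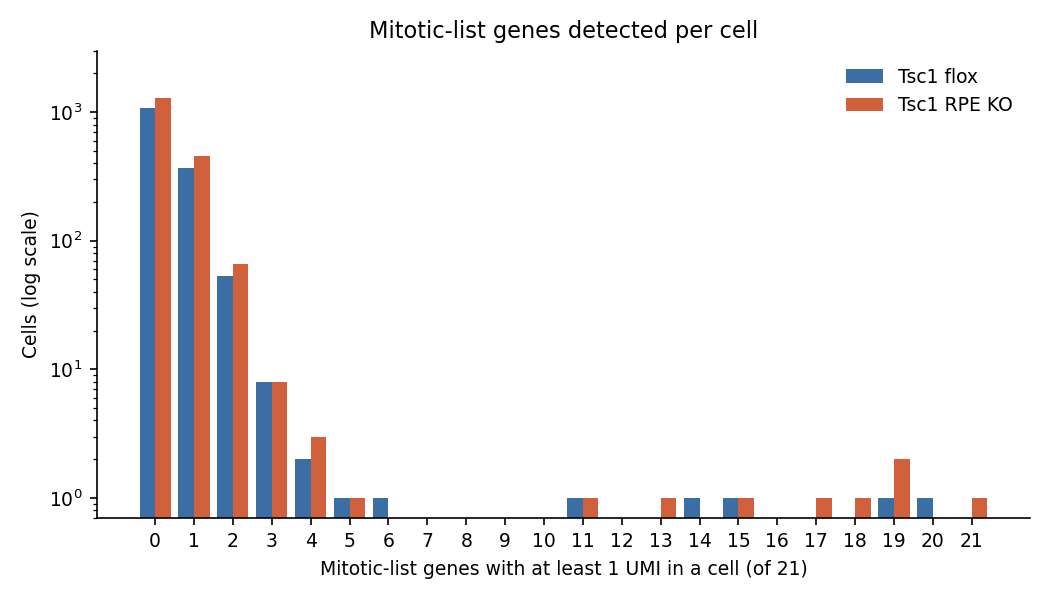
Cells (vertical axis, log scale) by the number of the 21 mitotic-list genes with at least 1 UMI (horizontal axis), with bars for Tsc1 flox and Tsc1 RPE KO. No cell of either library held 7 to 10 genes, and 5 and 8 cells held 11 or more.

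The intervals of the 2 libraries overlapped for the share of called cells. It was 1.11% (0.651 to 1.78) in Tsc1 flox, beside 1.10% (0.671 to 1.69) in Tsc1 RPE KO. Cells with at least 11 mitotic-list genes made up 0.328% (0.107 to 0.763) and 0.439% (0.190 to 0.862). Among rods, which do not divide, 0 of 42 and 1 of 166 rod-like cells held 3 genes and none held 11, at median depths of 2075 and 2869 UMIs. The 1 cell held Ccna2, Bub1b and Kif23, and rods held some mitotic-list genes without others, as given below. Called cells were deeper, with a median of 9443 UMIs over both libraries. The rod share is thus only a rough background and does not give the rate of false calls in deeper classes.

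Of the 13 cells, 10 were T cell-like (76.9%), whereas T cell-like cells made up 21.2% of all cells. They were 5 of 340 T cell-like cells in Tsc1 flox (1.47%, 0.479 to 3.40), and in Tsc1 RPE KO they were 5 of 369 (1.36%, 0.441 to 3.13). NK cell-like cells gave 0 of 171, which allows a share of up to 1.75%, and 1 of 122. Below the limit of 11, 1 Tsc1 flox NK cell-like cell held 6 mitotic-list and 11 replication-list genes. It was still called after thinning, so the limit does not take in every cell that may be cycling. Monocyte-like cells gave 0 of 209 and 2 of 573, and 1 of these 2 held more UMIs of NK than of monocyte markers. B cell-like cells, the second large lymphocyte class, gave 0 of 413 and 0 of 318, which allows up to 0.726% and 0.943%. No such cell was found among fibroblast-like, endothelial-like, mural-like, mast cell-like, erythroid-like or rod-like cells. Some of these classes were too small to say much. The counts of 0 allow up to 7.32% and 6.38% in endothelial-like, 33.3% and 60% in mural-like and 23.1% and 30% in mast cell-like cells. Erythroid-like cells numbered only 10 and 2.

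RPE-like cells, the cells in which Tsc1 was targeted, gave 0 of 12 and 0 of 40 cells with even 3 mitotic-list genes. With so few cells this allows shares of up to 25% and 7.5%. Mki67 and Top2a had 0 UMIs in both groups of RPE-like cells. The whole mitotic list summed to 2 and 7 UMIs there, of which Cdk1 gave 2 and 2 and Cdc20 gave 0 and 3. These sums corresponded to 62.3 counts per 1000000 UMIs (CPM; 7.55 to 225) and 64.7 CPM (26.0 to 133), and the list stood at 108 and 151 CPM in free RNA from nearly empty barcodes. Division of RPE cells was thus not detectable at this depth in either library.

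The 10 T cell-like cells lay in 2 of the 4 T cell-like clusters. The cluster led by Gzmk, Cxcr6, Cxcr3 and Ifng, genes of effector T cells, held 2 of its 63 cells in Tsc1 flox and 5 of 99 in Tsc1 RPE KO. The cluster led by Tcrg-C1, Ctla4, Trdc and Icos, which include gamma-delta T cell receptor genes, held 3 of 30 (10.0%, 2.11 to 26.5) and 0 of 31 (0%, 0 to 11.2). Its top genes also included Il2ra and Ikzf2, and Cd4 was among its markers, so it was not purely a gamma-delta cluster. The cluster led by Cd4 and Tcf7 gave 0 of 129 and 0 of 150, and the cluster led by Cd8b1 and Dapl1 gave 0 of 118 and 0 of 89. The T cell-like cells with at least 11 mitotic-list genes thus came from both clusters in the Tsc1 flox library and from the effector cluster in the Tsc1 RPE KO library.

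Marker counts gave a subtype for some of these cells. Of the T cell-like cells, 1 in each library held 24 or 25 UMIs of Trdc, the constant gene of the delta receptor chain. The Tsc1 flox one lay in the cluster led by Tcrg-C1, and the Tsc1 RPE KO one in the effector cluster. Cd8b1, a coreceptor chain of killer T cells, reached 7 and 8 UMIs in 2 Tsc1 flox cells and 8 and 10 in 2 Tsc1 RPE KO cells. In Tsc1 RPE KO 1 further T cell-like cell held 365 UMIs of NK markers, 332 of them Gzma, beside 39 of T cell markers. The NK cell-like cell of Tsc1 RPE KO held 475 UMIs of NK markers and 0 of T cell markers. Of the 2 monocyte-like cells, 1 held 270 UMIs of NK, 105 of monocyte and 42 of T cell markers, so its class is mixed, and the other held 24 of monocyte and 17 of macrophage markers at 2017 UMIs in all.

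The 13 cells differed in which list they held most of. Replication-list UMIs exceeded mitotic-list UMIs in 3 cells: 98 against 43 and 118 against 68 in Tsc1 flox, and 97 against 82 in Tsc1 RPE KO. These 3 were also highest in Pclaf, a Pcna-binding protein, with 36, 34 and 35 UMIs. At the other end 4 cells held at most 5 replication-list UMIs beside 24 to 120 mitotic-list UMIs. In the Tsc1 RPE KO cell with 97 replication-list UMIs, Ccnb1, Ccnb2, Cdc20, Cenpa and Ube2c were all at 0 while Mki67 stood at 28. The Tsc1 RPE KO cell with 2 replication-list UMIs held 34 UMIs of Ube2c, 7 of Cenpa and 4 of Cdc20. Over the 13 cells the mitotic list ran from 2370 to 15422 CPM with a median of 7701, and the replication list from 0 to 7832 CPM with a median of 2370.

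**Figure D2:**
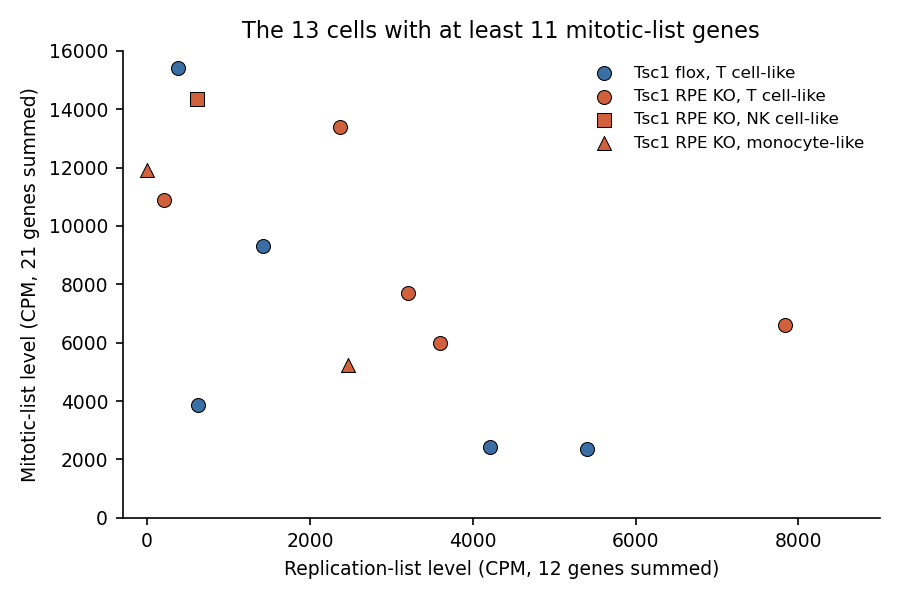
Summed level of the 21 mitotic-list genes (vertical axis, CPM) against that of the 12 replication-list genes (horizontal axis, CPM) in each of the 13 cells, coloured by library with the class as the shape. The mitotic list runs from 2370 to 15422 CPM and the replication list from 0 to 7832 CPM.

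Mki67 (ENSMUSG00000031004), the proliferation antigen Ki-67 that coats mitotic chromosomes, was found in 13 of 13 cells. The Tsc1 flox cells held 4, 19, 4, 6 and 4 UMIs of it and the Tsc1 RPE KO cells 12, 12, 6, 3, 3, 8, 28 and 1. Birc5, or survivin, held 4 to 20 UMIs in the Tsc1 flox cells and 3 to 21 in the Tsc1 RPE KO cells. Birc5 and Cdca8, which belong with Aurkb to the chromosomal passenger complex, were the other genes of the mitotic list present in 13 of 13. Top2a, the topoisomerase that untangles sister chromatids, was at 0 in 3 of the 13 and reached 36 and 32 UMIs in the highest cell of each library. The ranges of the 2 libraries overlapped for each of these genes.

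The 13 cells were 0.388% of all cells and held 0.977% of all UMIs. Since they were picked by the mitotic list, their share of that list is a description: it was 68.0% of a gene's UMIs at the median of the 21 genes, from 11.6% for Kif23 to 87.0% for Birc5. For 12 of the 21 the share was above 50%, among them Cenpf (85.6%), a kinetochore protein, Kif11 (81.0%), the motor that parts the spindle poles, Mki67 (80.9%) and Cdk1 (70.6%). Birc5 stood at 606 and 933 CPM in the cells with at least 11 mitotic-list genes of Tsc1 flox and Tsc1 RPE KO, and at 1.38 and 0.953 CPM in all other cells. Mki67 stood at 457 and 801 CPM against 0.501 and 2.33 CPM.

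The replication list had not been used to pick these cells. The 13 cells held 73.2% of the UMIs of Rrm2, the regulated subunit of ribonucleotide reductase, and 70.9% of those of Pclaf. Tyms, thymidylate synthase, followed with 29.5% and Tk1, thymidine kinase, with 25%. For the other 8 genes the share was lower: 10.4% for Rrm1, 4.04% to 10.3% for Mcm2 to Mcm7, and 4.04% for Pcna. The median over the 12 genes was 8.88%. Rrm2 and Rrm1, subunits of 1 enzyme, were spread differently: Rrm2 was found in 0.719% of the other cells and Rrm1 in 6.24%. Of the broad genes, Stmn1, which destabilises microtubules, gave 26.8%, Hmgb2, a DNA-bending protein, 14.3%, and Smc2, a condensin subunit, 12.7%.

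**Figure D3:**
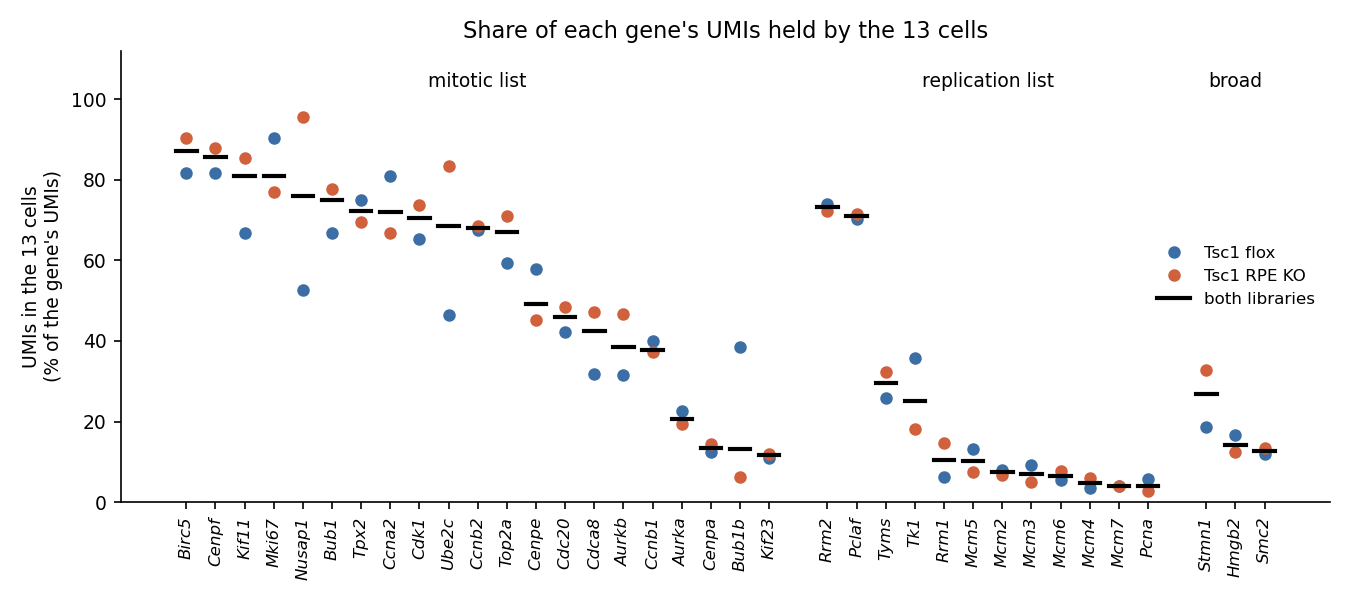
Percent of each gene's UMIs that lie in the 13 cells (vertical axis), with a point for each library and a black line for both together, and genes grouped by list (horizontal axis). Rrm2 and Pclaf stand at 73.2% and 70.9%, and the 6 Mcm genes and Pcna at 10.3% or less.

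Genes of the cycle that were in neither list went with the same cells. From a second list of 35 cell cycle genes, 28 had at least 20 UMIs in T cell-like cells, and 28 of 28 stood at least 2-fold higher in the 10 T cell-like cells than in the 689 T cell-like cells with fewer than 3 mitotic-list genes. The median ratio was 11.7, and 15.4% of all genes tested passed the same limit upward and 25.2% downward. Within the 2 clusters that hold the 10 cells it was 25 of 25 with a median of 7.88, against 7.42% and 24.3% of all genes. H2afz, a histone variant, stood at 3821 against 573 CPM in Tsc1 flox and 3847 against 731 CPM in Tsc1 RPE KO. Tuba1b and Tubb5, the tubulins of the spindle, were 8.50-fold (7.13 to 10.1) and 5.59-fold (4.86 to 6.41) higher over both libraries. Ran, a GTPase of nuclear transport, was 3.79-fold (3.14 to 4.54) and Hmgn2, a nucleosome-binding protein, 10.8-fold (8.75 to 13.2) higher. The cells compared are cells of 2 libraries, not replicates, and the 10 held 7781 to 27981 UMIs, each more than the T cell-like medians of 5629 and 5096.

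Outside every list, the genes with the highest lower bounds in the 10 cells included replication-dependent histones and centromere genes. Hist1h1b had 130 UMIs in the 10 cells and 8 in the others, but 60.8% of the 130 lay in 1 cell. Hist1h2ap had 583 against 90 UMIs and was present in 10 of 10 cells. Cenpm, which acts at the centromere, had 21 against 2 UMIs, and Knl1, a kinetochore scaffold, had 24 against 3. Fbxo5, an inhibitor of the complex that Cdc20 activates, had 34 against 10, and Asf1b, a histone chaperone, 19 against 10. Further genes named by this rule were Hist1h2ae, Ckap2l, Ckap2, Cep55 and Hist1h1e. This ranking describes these cells and is no test.

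Of the arrest and quiescence genes, 10 of 12 were measured, 3 at least 2-fold higher and 2 at least 2-fold lower in the 10 cells, beside 15.4% and 25.2% of all genes, so the lower count was not above the background. Within the 2 clusters 2 of 10 were higher and 3 lower, beside 7.42% and 24.3%. Btg1, an antiproliferative gene, stood at 655 against 2556 CPM in Tsc1 flox and 794 against 2286 CPM in Tsc1 RPE KO, which gave a ratio of 0.294 (0.239 to 0.359). Btg2 had a ratio of 0.549 (0.377 to 0.774), Klf2, a quiescence factor of T cells, 0.562 (0.460 to 0.679), and Cdkn1b, the inhibitor p27, 0.579 (0.369 to 0.865). Cdkn1a, the inhibitor p21, ran the other way at 6.26 (2.81 to 12.6), with 0 UMIs in the Tsc1 flox cells and 10 in the Tsc1 RPE KO cells. Cdkn2c, the inhibitor p18, chosen after its value was seen, stood 14.9-fold (6.98 to 30.5) higher. Within the 2 clusters Btg1 kept a ratio of 0.338 (0.274 to 0.414), and Cdkn1a had 2.22 (0.981 to 4.56).

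Of the cell cycle regulators, 13 of 20 were measured, with 5 at least 2-fold higher and 1 lower, beside 15.4% and 25.2% of all genes. Of 10 measured within the 2 clusters 2 were higher, 0 with an interval above 1, and 1 was lower, beside 7.42% and 24.3%. The lower one was Ccnd2, a D-type cyclin, at 210 against 477 CPM in Tsc1 flox and 207 against 544 CPM in Tsc1 RPE KO, which gave a ratio of 0.409 (0.273 to 0.589). Ccnd3 stood 1.75-fold higher (1.27 to 2.35), and within the 2 clusters 1.09-fold (0.788 to 1.49). Foxm1, a factor that binds many mitotic promoters, had 9 UMIs in the 10 cells and 6 in the 689 others, and E2f7 had 6 and 0, both chosen after their values were seen. For E2f4, a repressing E2F, the ratio was 2.11 (1.16 to 3.57), and within the 2 clusters 1.51 (0.810 to 2.65).

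Effector and homing genes of T cells depended on which T cells were compared. Gzma was 3.75-fold higher (3.35 to 4.18) than in all other T cell-like cells, and 332 of its 369 UMIs came from the 1 cell with NK markers. Ccr7, a homing receptor of naive T cells, stood at a ratio of 0.116 (0.0377 to 0.272). Within the 2 clusters Ccr7 had a ratio of 2.66, with an interval that includes 1. Of the whole list 16 of 17 genes were measured against all other T cell-like cells, with 4 at least 2-fold higher and 6 lower, beside 15.4% and 25.2% of all genes. Of 14 measured within the 2 clusters 1 was higher and 6 were lower, beside 7.42% and 24.3%. From lists of B cell differentiation and blood cell precursor genes, 2 of 8 (2 higher) and 2 of 11 (2 lower) were measured. Within the 2 clusters 0 of 2 B cell differentiation genes were higher or lower, and 0 precursor genes were measured. Ccl5, a chemokine of effector cells, stood at 1150 against 13393 CPM within those clusters in Tsc1 flox and at 9419 against 16728 CPM in Tsc1 RPE KO.

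Over all cells, the mitotic list stood at 134 CPM in Tsc1 flox, beside 170 CPM in Tsc1 RPE KO, which gave a ratio of 1.27 (1.18 to 1.37). Without the 13 cells it stood at 80.4 and 83.4 CPM, a ratio of 1.04 (0.933 to 1.15). The replication list stood at 267 and 247 CPM, a ratio of 0.925 (0.872 to 0.981), and at 0.932 (0.875 to 0.992) without them. Both upper bounds lie close to 1. Of the 1903 replication-list UMIs in Tsc1 flox outside the 13 cells, 49 lay in 1 NK cell-like cell with 6 mitotic-list genes. The ratio without that cell was not computed. Over all cells 3 of 35 measured genes of the 36 were at least 2-fold higher in Tsc1 RPE KO and 0 lower, beside 5.97% and 3.78% of all genes. The 3 were Ccnb1, Bub1b and Kif11. Of the 48 Kif11 UMIs in Tsc1 RPE KO, 41 lay in the 8 cells with at least 11 mitotic-list genes, as did 16 of the 43 of Ccnb1. Of the 48 Bub1b UMIs in Tsc1 RPE KO, 30 lay in rod-like cells, which numbered 42 in Tsc1 flox, beside 166 in Tsc1 RPE KO.

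Among the 5 classes with at least 50 cells in each library, the widest gap in the mitotic list lay in NK cell-like cells. The mitotic list stood at 66.3 CPM in Tsc1 flox, beside 426 CPM in Tsc1 RPE KO, which gave a ratio of 6.43 (4.78 to 8.79), and at 1.23 (0.816 to 1.85) without the single cell with at least 11 mitotic-list genes. Of 16 measured genes 5 were at least 2-fold higher in Tsc1 RPE KO (Top2a, Birc5, Cenpa, Cenpf and Ube2c) and 0 lower, beside 2.06% and 2.63% of all genes. Top2a had 11 and 34 UMIs, of which 20 lay in that cell, Ube2c 0 and 26, all in that cell, and Cenpf 1 and 25, again with all 25 in it. Birc5 had 1 and 19 UMIs, with 18 in that cell, and Cenpa 22 and 33, with 19 in it. Birc5, Cenpf and Ube2c reached the limit of 20 UMIs only through that cell. The count of 5 genes therefore mostly describes 1 cell. The replication list ran the other way in NK cell-like cells, at 444 against 363 CPM, a ratio of 0.817 (0.688 to 0.969). Of its 362 UMIs in Tsc1 flox, 49 lay in 1 cell with 6 mitotic-list genes. The ratio without that cell was not computed. Cells with at least 3 replication-list genes and fewer than 3 mitotic-list genes were 22 of 171 (12.9%, 8.24 to 18.8) and 10 of 122 (8.20%, 4.0 to 14.6).

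In T cell-like cells the mitotic list stood at 295 and 353 CPM, a ratio of 1.20 (1.07 to 1.34), and at 1.22 (0.984 to 1.51) without the cells with at least 11. Of 31 measured genes 2 were at least 2-fold higher, Kif11 with 10 and 33 UMIs and Cdca8 with 21 and 42, and 1 was lower, Ccnb2 (cyclin B2) with 32 and 12. Outside the cells with at least 11 mitotic-list genes only 0 and 2 of the Kif11 UMIs, 8 and 11 of the Cdca8 UMIs and 5 and 2 of the Ccnb2 UMIs remained. The background was 1.97% higher and 1.31% lower. The replication list had a ratio of 0.983 (0.892 to 1.08).

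In monocyte-like cells the mitotic list stood at 77.9 and 101 CPM, a ratio of 1.29 (1.06 to 1.58) that turned to 0.928 (0.755 to 1.15) without the 2 cells with at least 11 mitotic-list genes. Of 19 measured genes Top2a, Ccnb1, Mcm7 and Ube2c were at least 2-fold higher and Aurkb was lower, beside 4.51% and 3.25% of all genes. Of 34 Top2a UMIs in Tsc1 RPE KO, 25 lay in the single cell of mixed markers. Without the 2 cells Top2a stood at 2.24 and 2.33 CPM and Ube2c at 1.68 and 2.85 CPM, both under 2-fold, while Aurkb stood at 7.85 and 2.33 CPM. Ccnb1, cyclin B1, had 0 and 22 UMIs in this class. Of the 22, 19 lay in 2 cells that did not hold 11 mitotic-list genes, with 13 in a single cell. Mcm7 had 11 and 59 UMIs, at 6.17 and 14.5 CPM without the 2 cells. The replication list had a ratio of 1.27 (1.10 to 1.47), and 1.20 (1.04 to 1.39) without them. The class is made of different clusters in the 2 libraries: the cluster led by Cd300e and Fabp4 held 76 of its cells in Tsc1 flox, beside 362 in Tsc1 RPE KO, and its part in these ratios was not tested.

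B cell-like and fibroblast-like cells showed no gap beyond counting error in either list. The mitotic list had ratios of 1.01 (0.810 to 1.27) and 1.42 (0.834 to 2.42), and the replication list 0.969 (0.831 to 1.13) and 0.922 (0.740 to 1.14). In B cell-like cells 0 of 12 measured genes were 2-fold higher or lower, beside 1.36% and 2.51% of all genes. In fibroblast-like cells 0 of 9 were higher and 1, Mcm3, was lower, beside 2% and 3.24%.

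**Figure D4:**
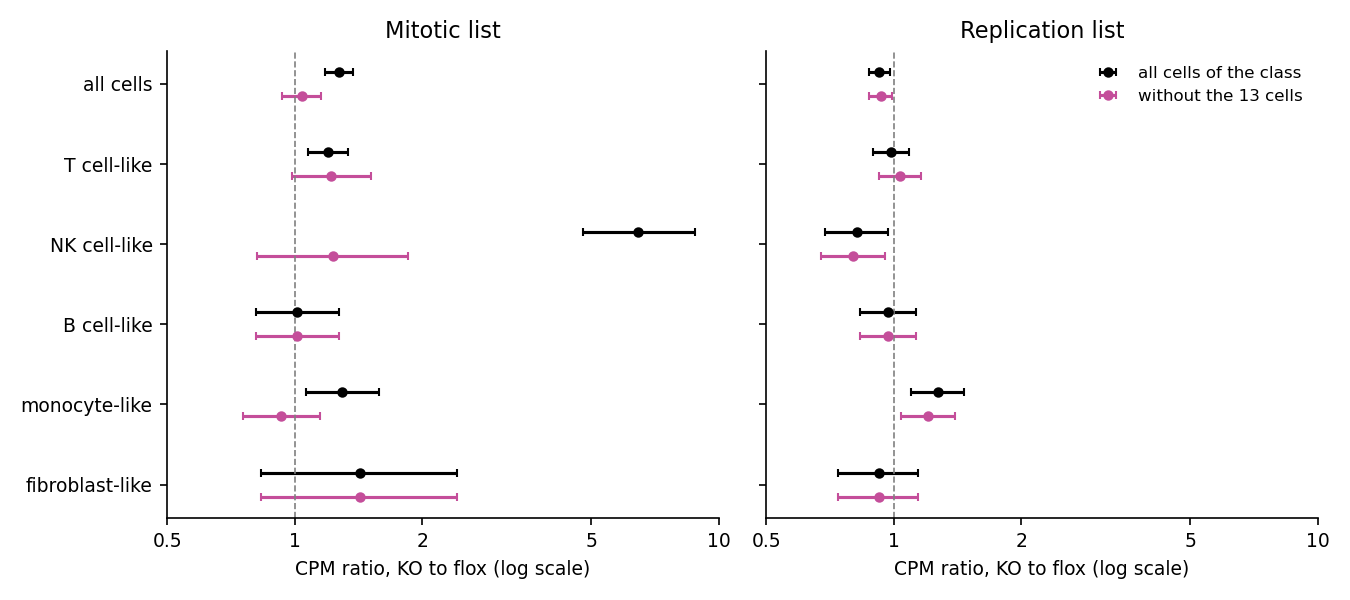
Ratio of the summed level (CPM) in Tsc1 RPE KO to that in Tsc1 flox (horizontal axis, log scale) for each class (vertical axis), mitotic list left and replication list right, with exact 95% counting intervals. Black points use all cells of the class and coloured points leave out the 13 cells: in NK cell-like cells the mitotic ratio goes from 6.43 to 1.23.

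Several mitotic genes were read in cells other than the 13, also in classes that held none of the 13. Cenpa, the centromeric histone H3 variant, was found in 13.9% of cells other than the 13, and was highest in B cell-like cells among the classes with at least 50 cells over both libraries. It stood there at 70.5 CPM (58.3 to 84.4) in Tsc1 flox, beside 72.6 CPM (58.8 to 88.8) in Tsc1 RPE KO. In T cell-like cells outside the 13 Cenpa stood at 47.1 and 51.0 CPM, and in monocyte-like cells at 18.5 and 11.9 CPM. The order B, T and then monocyte was the same in both libraries, with the B and T intervals apart in Tsc1 flox and overlapping in Tsc1 RPE KO. Free RNA held Cenpa at 35.6 and 30.4 CPM, between these levels, and rod-like cells had 1 and 4 UMIs, at 8.63 and 6.79 CPM.

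Kif23, the kinesin that forms the central spindle for cytokinesis, was highest in monocyte-like cells among the classes with at least 50 cells over both libraries. It stood there at 28.0 CPM (20.8 to 37.0) in Tsc1 flox, beside 28.0 CPM (23.0 to 33.8) in Tsc1 RPE KO, without the 13 cells. In T cell-like cells Kif23 stood at 8.71 and 10.7 CPM and in B cell-like cells at 8.96 and 8.41 CPM, so the monocyte intervals lay above both in each library. A UMI of Kif23 was found in 19.1% and 14.5% of monocyte-like cells, and free RNA held 7.28 and 8.90 CPM. The few mast cell-like cells held 2 and 5 UMIs of Kif23, at 29.7 CPM (3.59 to 107) and 127 CPM (41.2 to 296). Mki67 had 0 UMIs in Tsc1 flox monocyte-like cells, beside 9 in Tsc1 RPE KO. Of the 9, only 3 and 1 lay in the 2 cells with at least 11 mitotic-list genes.

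Rod-like cells held Bub1b, Ccna2 and Cenpe without Mki67, Top2a or Birc5. Bub1b had 2 UMIs in 42 Tsc1 flox cells and 30 in 166 Tsc1 RPE KO cells, at 17.3 CPM (2.09 to 62.4) and 50.9 CPM (34.3 to 72.7). The 30 UMIs were spread over 24 cells. Ccna2, cyclin A2, had 0 and 12 UMIs and Cenpe, a kinetochore motor, 0 and 10, each over 10 cells. Free RNA held Bub1b at 2.43 and 12.6 CPM, Ccna2 at 2.43 and 2.97 CPM and Cenpe at 0.809 and 4.45 CPM. Mki67, Top2a and Birc5 had 0 UMIs in all 208 rod-like cells, which by the exact interval allows up to 5.23 CPM of each. Of the 61 UMIs of Bub1b in both libraries, rods held 32 and the 13 cells 8. Over all cells Bub1b had 13 UMIs in Tsc1 flox, 2 of them in rods, and 48 in Tsc1 RPE KO, 30 of them in rods. The whole mitotic list summed to 4 and 66 UMIs in rods, a ratio of 3.24 (1.21 to 12.3). The rod-like class is made of different clusters in the 2 libraries: 1 of its 2 clusters held 25 of the 42 Tsc1 flox cells, beside 149 of the 166 Tsc1 RPE KO cells. Cone markers summed to 725 and 2647 CPM in the class and bipolar cell markers to 0 and 214 CPM, and the part of these differences in the ratio was not tested.

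Red cells held Ube2c, the E2 enzyme of the anaphase-promoting complex, and Nusap1, a spindle protein. The 10 erythroid-like cells of Tsc1 flox held 34 UMIs of Ube2c in 9 cells and 16 of Nusap1 in 6 cells, with 0 of Top2a and 1 of Mki67. Ube2c stood at 192 CPM (133 to 268) there. The 55 and 65 barcodes set aside for holding fewer than 200 genes, nearly all of whose UMIs were hemoglobin and other erythroid genes, showed the same pair in both libraries. They held 21 and 17 UMIs of Ube2c and 24 and 12 of Nusap1, and 0 of Mki67 and Top2a. For the other 19 mitotic-list genes they held 2 UMIs in Tsc1 flox, beside 0 in Tsc1 RPE KO. Without the 13 cells, Tsc1 flox had more Ube2c (5.76 against 2.22 CPM) and Nusap1 (3.26 against 0.318 CPM), and 10 against 2 erythroid-like cells.

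**Figure D5:**
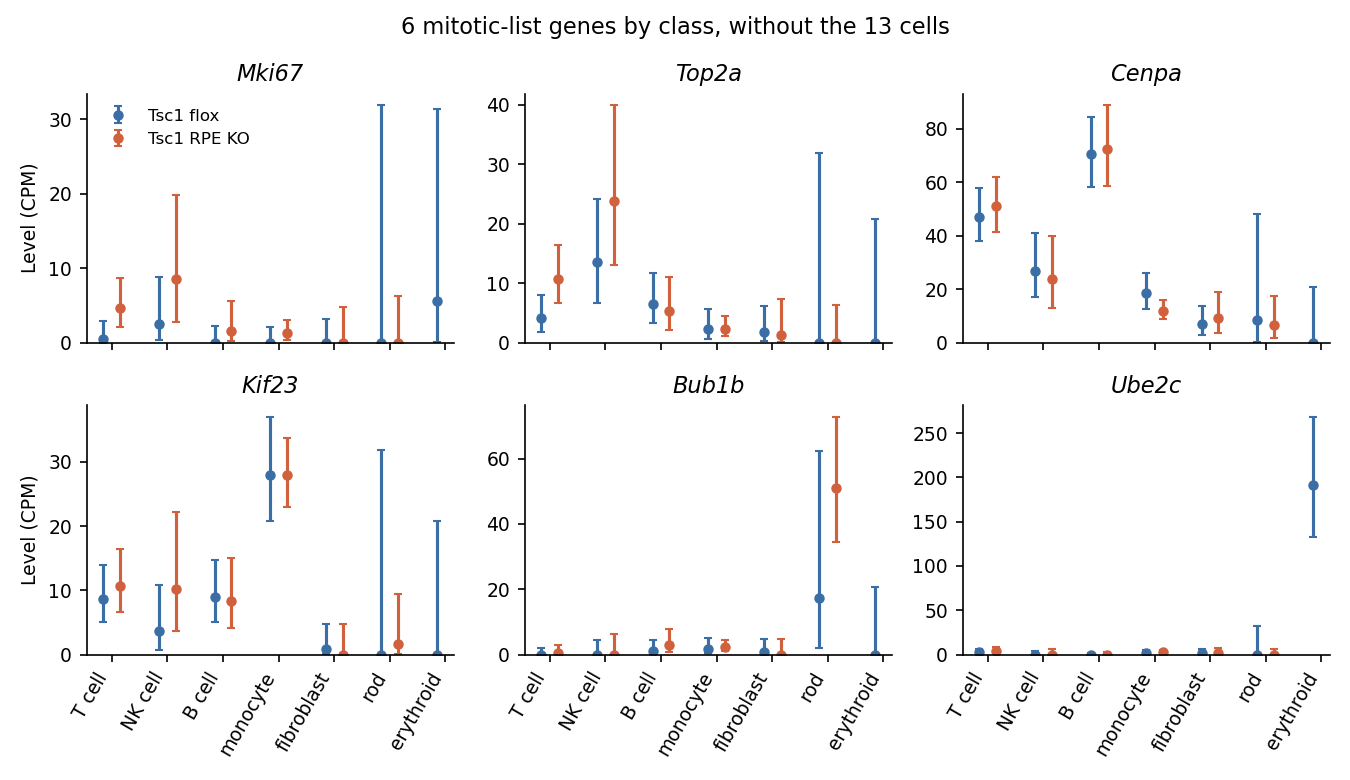
Level (CPM, vertical axis) of 6 mitotic-list genes in 7 of the 11 classes (horizontal axis) without the 13 cells, for Tsc1 flox and Tsc1 RPE KO with exact 95% Poisson intervals. The 2 erythroid-like cells of Tsc1 RPE KO are left out. Of the classes plotted, Cenpa is highest in B cell-like, Kif23 in monocyte-like, Bub1b in rod-like and Ube2c in erythroid-like cells.

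The replication genes differed in how many cells other than the 13 held them, from 0.659% for Tk1 and 0.719% for Rrm2 to 11.3% for Mcm7 and 35.1% for Pcna. Pcna stood at 90.3 CPM in those Tsc1 flox cells, beside 97.2 CPM in Tsc1 RPE KO, close to the 89.0 and 94.9 CPM of free RNA. Rod-like cells held Pcna at 77.7 CPM (35.5 to 148) and 114 CPM (88.1 to 144), so a UMI of Pcna did not mark dividing cells here. Mcm4, Mcm5 and Mcm6 were highest in NK cell-like cells outside the 13, at 55.6, 27.8 and 56.3 CPM over both libraries, above 37.3, 14.8 and 37.3 CPM in T cell-like cells. Cells with at least 3 replication-list genes but fewer than 3 mitotic-list genes were 113 of 1525 (7.41%) and 100 of 1824 (5.48%), and 3 and 10 cells met this rule after thinning to 1500 UMIs.

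Of the broad genes, Hmgb2 was found in 63.8% of cells other than the 13, Stmn1 in 17.6% and Smc2 in 9.62%. Hmgb2 stood at 385 and 429 CPM in T cell-like, 498 and 527 CPM in monocyte-like and 77.6 and 114 CPM in fibroblast-like cells. In RPE-like cells Hmgb2 had 0 and 3 UMIs. Rod-like cells held Hmgb2 at 380 CPM (276 to 510) and 463 CPM (410 to 522), against 225 and 262 CPM in free RNA. Stmn1 stood at 190 and 216 CPM in NK cell-like cells outside the 13 and at 162 and 166 CPM in endothelial-like cells, with overlapping intervals. It stood at 60.5 and 75.0 CPM in T cell-like and 20.7 and 18.4 CPM in monocyte-like cells.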

How the data were processed

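The deposited files were unfiltered matrices of UMI counts per gene and barcode, made from single cell 3′ libraries. Build mm10 and Cell Ranger 2.1.1 are given in the submitters' processing notes, while the file headers carry the stamp of Cell Ranger 4, so the version is unsettled. The authors' other steps are not given in the sources used here.

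Barcodes with at least 1500 UMIs, at least 200 genes and at most 20% mitochondrial UMIs were kept as cells. This set aside 55 and 65 barcodes with too few genes and 0 for mitochondrial UMIs in Tsc1 flox, then in Tsc1 RPE KO, and Scrublet marked 5 and 23 doublets, which were removed. Cells were clustered in scanpy 1.11.5 (2000 variable genes without cell cycle genes, 30 components, 20 neighbours, Leiden resolution 1). A cluster took the name of a marker list with at least 3 markers in at least 10% of its cells and at least 2-fold above the rest, unless its top 10 genes held more markers of another list.

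Levels are UMIs of a class summed per library, per 1000000 UMIs of that class (CPM). Shares carry exact Clopper-Pearson intervals, levels exact Poisson intervals and ratios exact conditional binomial intervals, all at 95%. Ratios were given for genes with at least 20 UMIs. The ratio intervals were tested on simulated Poisson counts only, which lack the clumping of UMIs in single cells seen here. That test therefore does not cover clumped counts. Free RNA was read from barcodes of 10 to 100 UMIs. A count of 0 was taken to allow up to 3 counts, except where an exact interval is given. No test between genotypes was made.

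The named genes were the 36 genes, up to 6 genes of each other list by UMIs, and the 12 unlisted genes with the highest lower bounds in the class with most dividing cells. Some genes that these rules name are not reported here. The members and lists were chosen with earlier results of these data known. Promoter sequences came from RefSeq, and 5 of the 36 genes had no entry.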

Additional observations from a re-analysis of the deposited data

How the results depend on the processing

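The cell rules, call rules, cluster settings, scalings and limits were varied, and 160 of 212 values stayed within the main interval or within 1.5 times the main count. Every pair of shares below is in Tsc1 flox, then in Tsc1 RPE KO. Over all cells the share called was 4.59% and 4.71% with at least 2 mitotic-list genes, 0.459% and 0.493% with at least 5, 2.36% and 3.23% by a UMI of Mki67 or Top2a, 0.393% and 0.493% after thinning to 1500 UMIs, 0.328% and 0.439% with at least 11, and 0.590% and 0.548% without Cenpa, Kif23, Aurka and Cdca8. In T cell-like cells it was 5.88% and 6.23% with at least 2 genes, and in Tsc1 RPE KO 6.23% by Mki67 or Top2a and 1.36% with at least 5, with at least 11 and after thinning. In NK cell-like cells it was 4.68% and 9.02% by Mki67 or Top2a, 4.92% in Tsc1 RPE KO with at least 2 genes and 0% in Tsc1 flox with at least 11. In B cell-like cells it was 3.63% and 4.09% with at least 2 genes, 2.18% and 2.52% by Mki67 or Top2a, and 0% and 0% with at least 5, with at least 11, after thinning and without the 4 genes. In monocyte-like cells it was 12% and 5.93% with at least 2 genes, 0% in Tsc1 flox after thinning and with at least 11, and in Tsc1 RPE KO 0.349% with at least 11, 2.62% by Mki67 or Top2a and 0.378% with a minimum of 2500 UMIs. The rules with at least 11 genes and without the 4 genes, and the ratios without the 13 cells, were chosen after seeing the data.

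The mitotic-list ratio without the 13 cells was 1.04 over all cells, 1.23 in NK cell-like cells and 0.928 in monocyte-like cells, where it was 0.988 with a minimum of 2500 UMIs, which also leaves out the monocyte-like cell of 2017 UMIs. With a fold of 1.5, 7 genes were higher over all cells, 5 were higher and 2 lower in T cell-like cells, 2 lower in B cell-like cells and 2 lower in fibroblast-like cells. With at least 10 UMIs, 11 were higher in NK cell-like cells and 1 in B cell-like cells. Most of the 11 had most of their Tsc1 RPE KO UMIs in the single NK cell-like cell with at least 11 mitotic-list genes. The causes of these changes were not tested. The small number of RPE-like cells, 12 and 40, limits what could be detected there. No paired analysis was possible because each genotype had 1 library.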
